A study of Mus musculus with 2 samples.

Results

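The cells described here are mouse liver tumour epithelial cells that carried at least 5 unique transcripts (unique molecular identifiers, UMIs) of Tff2, and they are called Tff2 cells below. They were chosen by counts alone. A barcode counted as a tumour cell with at least 5000 UMIs, at most 20% mitochondrial UMIs, at least 5 UMIs of the epithelial keratins Krt8 and Krt18 together and 0 UMIs of the leukocyte gene Ptprc. Of 17473 barcodes in all, 10222 were tumour cells and 2833 of these were Tff2 cells. The comparison was made with the 4577 tumour cells in which Tff2 was not seen (Tff2=0 cells), and the 2812 tumour cells with 1 to 4 Tff2 UMIs were kept apart.

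The study profiled tumours by droplet single-cell RNA sequencing and asked how targeting the splicing factor gene Srsf10 bears on tumour immunity. There was 1 library from tumours labelled shCtrl, with genotype WT, and 1 from tumours labelled shSrsf10, a short hairpin RNA against Srsf10. The labels give no mouse number, strain, age, promoter or cell type for the hairpin. They also conflict on preparation, naming a 5′ kit with tumour digestion and a flow cytometry sort of unstated gate in one place, and a 3′ version 3 kit with a slow spin that leaves hepatocytes behind in another. With 1 library per group, no test between groups was possible, and every interval below is at 95% and covers counting error only.

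Tff2 encodes a trefoil factor, a small secreted protein that is made with mucus by the stomach and helps to protect and repair mucosal surfaces. Krt19 and Krt7 encode keratins of bile ducts and other simple epithelia that mature hepatocytes hardly make, and Sprr1a encodes a cross-linking protein of stratified epithelia that is also made after injury. Hepatocytes in turn are known for secreting plasma proteins such as transthyretin, fibrinogen and the apolipoproteins.

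The genes Tff1, Tff2 and Tff3 lie side by side on the minus strand of chromosome 17 of GRCm38 (mm10), Tff3 at 31125306 to 31129646, Tff2 at 31141049 to 31144282 and Tff1 at 31161395 to 31165277. Krt19 lies on chromosome 11 (100140810 to 100148665, minus strand), Krt7 on chromosome 15 (101411043 to 101430313, plus strand) and Sprr1a on chromosome 3 (92483952 to 92485895, minus strand). In GENCODE an antisense gene, Gm671, overlaps the start of Krt7, and whether the counting used strand is not given in the sources used here. Upstream sequence is shown for Sprr1a, which was higher in Tff2 cells, and for Fabp1, the liver fatty acid binding protein gene, which was lower. Each run covers bases 250 to 71 before the RefSeq transcript start on GRCm38.p6, at chr3:92485952-92486131 (minus strand) and chr6:71199629-71199808 (plus strand). Capitals mark the letters TGANTCA, the site bound by AP-1 transcription factors, which reads the same on both strands.
Sprr1a: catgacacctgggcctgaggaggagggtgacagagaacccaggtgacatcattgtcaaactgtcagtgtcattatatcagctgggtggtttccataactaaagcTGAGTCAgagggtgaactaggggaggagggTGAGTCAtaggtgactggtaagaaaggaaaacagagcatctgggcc
Fabp1: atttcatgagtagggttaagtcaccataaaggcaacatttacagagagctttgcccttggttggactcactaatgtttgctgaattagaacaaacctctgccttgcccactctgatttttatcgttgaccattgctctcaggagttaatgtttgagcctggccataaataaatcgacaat

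The Sprr1a run held the motif at 2 places, starting 146 and 116 bases before the transcript start, and the Fabp1 run held none. The motif was present in 4.93% of all 32851 promoters of the table in this window, and in 3.50% of the 11532 that belonged to genes measured in these cells. It was present in 29 of 258 promoters (11.2%) of the genes higher in Tff2 cells in both libraries and in 18 of 334 (5.39%) of those lower in both. Promoters were found for 202 of the 283 higher and 254 of the 346 lower genes. A match is a string of letters and was not tied to binding of any factor.

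The shCtrl library held 6459 tumour cells and 1158 Tff2 cells, 17.9% (17.0 to 18.9). The shSrsf10 library held 3763 tumour cells and 1675 Tff2 cells, 44.5% (42.9 to 46.1). The share was higher in shSrsf10, but the tumour cells of that library also held more UMIs, with a median of 27525 against 18176. At least 1 UMI of Tff2 was present in 43.8% of shCtrl and 74.8% of shSrsf10 tumour cells. When every tumour cell was thinned to 5000 UMIs, the share with Tff2 was 26.4% in the shCtrl library (25.4 to 27.5), while in the shSrsf10 library it was 49.9% (48.3 to 51.5). By each of these measures the share was higher in shSrsf10. Among cells of 10000 to 40000 UMIs the shares of Tff2 cells were 17.8% and 38.3%. The unstated sort gate could also set these shares, and its part was not tested.

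Cells that should lack Tff2 showed it far less often. Thinned to 1000 UMIs, Tff2 was seen in 12.05% of shCtrl and 25.2% of shSrsf10 tumour cells. In leukocytes, taken as barcodes of at least 1000 UMIs with at least 2 of Ptprc and 0 of Krt8 and Krt18, it was seen in 0 of 85 shCtrl cells, which by the limit of 3 counts allows a share of up to 3.53% (the Clopper-Pearson upper limit is 4.25%), and in 3 of 526 shSrsf10 cells, 0.570%. Those leukocytes had a median of 3052 and 2858 UMIs before thinning.

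Tff2 spanned a wide range among the cells. The Tff2 cells had a median of 15 Tff2 UMIs in shCtrl and 21 in shSrsf10, and the highest cells held 451 and 778. In counts per 1000000 UMIs (CPM), the level summed over Tff2 cells was 1053 CPM in shCtrl and 1099 CPM in shSrsf10, and over all tumour cells 275 and 624 CPM. These values chose the cells and are a description. The Tff2 cells held 89.5% of all Tff2 UMIs of the shCtrl library and 91.3% of the shSrsf10 library, and the top 10% of them held 42.1% and 43.4% of their Tff2 UMIs.

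**Figure D1:**
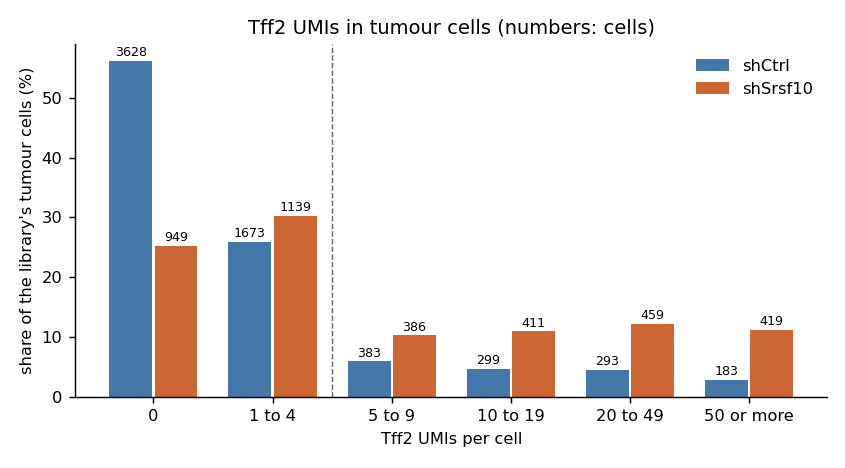
Share of each library's tumour cells (y axis, %) by the number of Tff2 UMIs in the cell (x axis), for shCtrl (blue) and shSrsf10 (orange), with the number of cells above each bar and a dashed line at the minimum of 5 UMIs. Cells with 50 or more Tff2 UMIs numbered 183 in shCtrl and 419 in shSrsf10.

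Cells just inside and just outside the minimum had similar levels of the duct keratins. In shCtrl, the 148 cells with 4 Tff2 UMIs had 420 CPM of Krt19 and 269 CPM of Krt7, and the 113 cells with 5 had 398 and 290.0 CPM. In shSrsf10, the 144 cells with 4 had 382 and 255 CPM, and the 113 cells with 5 had 352 and 269.6 CPM.

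The Tff2 cells were deeper than the Tff2=0 cells, with a median of 24413 against 15841.5 UMIs in shCtrl and 34476 against 19751 in shSrsf10. They had a median of 3733.5 against 2816.5 genes in shCtrl and 4207 against 3059 in shSrsf10. The rule counted Tff2 UMIs without scaling for depth and so favoured deeper barcodes. The differences in UMIs and genes thus followed in part from the choice of cells. The median mitochondrial share of Tff2 cells was 0.187% against 0.285%, and 0.103% against 0.154%. Barcodes with the highest Scrublet doublet scores made up 9.24% and 6.39% of Tff2 cells and 8.52% and 2.95% of Tff2=0 cells. A total of 67 barcodes occurred in both libraries, of which 23 were tumour cells and 2 were Tff2 cells in both.

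As a check of the hairpin, Srsf10 (chromosome 4, 135855747 to 135869908, plus strand) was at 48.3 CPM in shCtrl and 18.4 CPM in shSrsf10 Tff2 cells, a log2 ratio of -1.39 (-1.50 to -1.28). In Tff2=0 cells the levels were 43.5 and 21.9 CPM. The target was thus lower in the shSrsf10 library in both kinds of cell.

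For each gene, the CPM summed over Tff2 cells was divided by that over Tff2=0 cells of the same library, and a gene counted as higher or lower when the ratio was at least 1.5-fold in that direction in both libraries. Of 11430 genes with at least 50 UMIs over both groups of cells in each library, 283 were higher (2.48%) and 346 were lower (3.03%). In shCtrl alone 480 genes (4.2%) were higher and 564 (4.93%) lower, and in shSrsf10 alone 486 (4.25%) and 768 (6.72%). The median log2 ratio over all these genes was -0.01 in shCtrl and -0.03 in shSrsf10. With cells of both groups held to 10000 to 40000 UMIs, 269 genes were higher and 268 lower, and 219 and 228 of them were among the 283 and 346. Log2 ratios below are Tff2 cells over Tff2=0 cells in shCtrl and then in shSrsf10 unless stated otherwise.

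**Figure D2:**
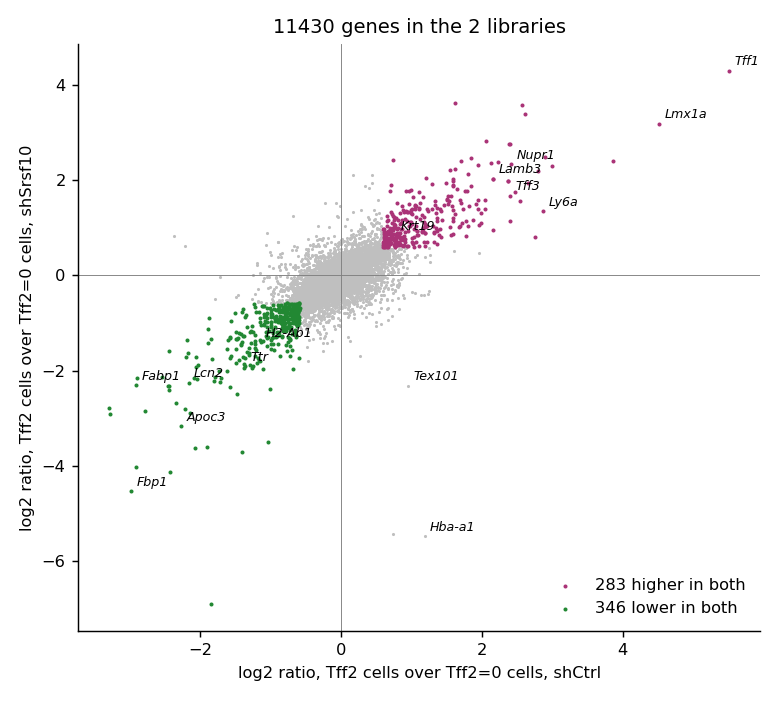
Log2 ratio of Tff2 cells over Tff2=0 cells in shCtrl (x axis) and shSrsf10 (y axis), 1 point per gene for 11430 genes other than Tff2, with the 283 genes higher in both libraries in purple and the 346 lower in both in green. Tff1 stands at the upper right, Fbp1 at the lower left on few cells (1 cell held 90.4% of its UMIs in shSrsf10 Tff2=0 cells and another 53.8% in shCtrl Tff2=0 cells), and Hba-a1 and Tex101 stand apart at the lower right, high in 1 library and low in the other.

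The other trefoil genes were higher in Tff2 cells, and Tff1 had the highest log2 ratio of the measured genes in each library. Tff1, a secreted peptide of gastric surface cells, was at 148 CPM in shCtrl and 57.6 CPM in shSrsf10 Tff2 cells, against 3.25 and 2.93 CPM in Tff2=0 cells, log2 ratios of 5.51 (5.31 to 5.71) and 4.30 (3.93 to 4.69). Tff3, the trefoil factor of goblet cells, was at 40.9 and 38.1 CPM against 7.80 and 11.9 CPM, log2 ratios of 2.39 and 1.68. Thinned to 5000 UMIs, Tff1 or Tff3 was seen in 34.7% and 24.6% of Tff2 cells and in 3.47% and 5.58% of Tff2=0 cells, so most Tff2 cells showed neither at this depth. The nearest genes beyond Tff1 on the chromosome, Tmprss3, Ubash3a and Rsph1, were all under 0.5 CPM in these cells.

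Of 24 genes of the trefoil and mucosal list, only 4 reached the minimum of 50 UMIs, so the list was mostly not measured. Of these 4, Tff1, Tff3 and the water channel gene Aqp5 were higher and Spink1 was not, with medians of 1.72 and 1.43. Aqp5 was at 7.93 and 7.87 CPM in Tff2 cells against 4.24 and 3.45 CPM. The gastric genes Muc5ac and Gkn1 were at 0 UMIs in all 4 groups of cells, and Muc6, Agr2 and Cldn18 were under 0.05 CPM in each. Psca and Phgr1, surface or mucosal epithelial genes chosen after their values were seen, were higher, Psca at 14.9 and 13.02 against 3.88 and 4.37 CPM and Phgr1 at 19.9 and 5.87 against 3.78 and 0.863 CPM.

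The label given to these cells was duct-like, and the data went only part of the way with it. The duct keratin Krt19 was at 490 CPM in shCtrl and 472 CPM in shSrsf10 Tff2 cells, against 287 and 265 CPM in Tff2=0 cells, log2 ratios of 0.77 (0.74 to 0.81) and 0.83 (0.79 to 0.87). Krt7 was at 325 and 361 CPM against 194 and 179 CPM, log2 ratios of 0.75 (0.71 to 0.78) and 1.01 (0.96 to 1.06). Both keratins were therefore higher in each library, and both were also well detected in the Tff2=0 cells.

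Of 18 measured genes of the bile duct list, 4 were higher in Tff2 cells, Krt19, Krt7, the epithelial adhesion gene Epcam and the osteopontin gene Spp1, and 1 was lower, Lcn2. The list's median log2 ratio was 0.05 in shCtrl and -0.02 in shSrsf10, close to that of all genes. When the cells were chosen after thinning to 5000 UMIs, Epcam was under 1.5-fold in both libraries, at log2 ratios of 0.52 and 0.48. Sox9, a duct and progenitor transcription factor, was at 99.6 and 94.2 CPM against 120 and 83.8 CPM. The junction gene Cldn4 was at 142 and 148 against 136 and 150 CPM. The biliary chloride channel gene Cftr was at 0 UMIs in shCtrl Tff2 cells and 0.0922 CPM in shSrsf10 Tff2 cells. Sox9, Cldn4 and Cftr were chosen after their values were seen.

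Some markers of hepatocytes and liver tumours differed by less than 1.5-fold from the Tff2=0 cells. Afp, the fetal serum protein of liver cancer, was at 1716 and 1099 CPM in Tff2 cells against 1547 and 1264 CPM. Alb, albumin, was lower in both libraries, at 1854 and 1447 against 2419 and 1974 CPM, log2 ratios of -0.38 and -0.45. Krt8, which the rule used, was at 1549.7 and 1718 against 1578 and 1661 CPM. The epithelial cadherin gene Cdh1 had 3 UMIs in shCtrl and 12 in shSrsf10 Tff2 cells, and 10 and 1 in Tff2=0 cells.

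The squamous and wound list, genes of stratified and injured epithelia, held 7 of 19 measured members that were higher and 1 that was lower, with medians of 0.36 and 0.61. Sprr1a was at 1575 and 1814 CPM in Tff2 cells against 929 and 1185 CPM, log2 ratios of 0.76 (0.75 to 0.78) and 0.61 (0.59 to 0.63). The second was close to 1.5-fold, and it was 0.52 when the cells were chosen after thinning to 5000 UMIs. Lamb3, a laminin chain of epithelial basement membranes, was at 28.2 and 23.6 against 6.32 and 5.804 CPM, log2 ratios of 2.16 and 2.03. The basal keratin gene Krt5 was at 8.36 and 12.4 against 4.27 and 5.76 CPM and the stratifin gene Sfn at 50.5 and 53.1 against 33.0 and 28.3 CPM. Krt20, Sprr2h and Anxa8 were also higher. Ivl, the late cornification protein involucrin, was lower, at 1.67 and 0.753 against 4.72 and 2.69 CPM. In shSrsf10 it was seen in only 19 Tff2 cells and 14 Tff2=0 cells, with 26.5% and 25% of its UMIs in a single cell.

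The duct keratins and Sprr1a were seen together in a larger share of Tff2 cells than of Tff2=0 cells. Thinned to 5000 UMIs, Krt19, Krt7 and Sprr1a were all detected in 583 of 1158 shCtrl Tff2 cells, 50.3% (47.4 to 53.3), and in 805 of 1675 shSrsf10 Tff2 cells, 48.1% (45.6 to 50.5). In Tff2=0 cells they were all seen in 24.0% (22.6 to 25.4) and 17.3% (14.9 to 19.8). None of them was seen in 2.25% and 2.57% of Tff2 cells, against 11.2% and 16.2% of Tff2=0 cells.

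Other genes were higher in Tff2 cells in both libraries. Those taken by rank needed 100 CPM in only 1 group of cells. The rank thus favoured genes that passed where they were high. Ly6a, the stem cell antigen Sca-1, which interferon also induces, was at 112 CPM in shCtrl and 513 CPM in shSrsf10 Tff2 cells against 15.4 and 202 CPM, log2 ratios of 2.86 (2.76 to 2.97) and 1.34 (1.30 to 1.39). Lgals1, a secreted galactose-binding lectin, was at 2469 and 3122 against 1131 and 1374 CPM, log2 ratios of 1.13 and 1.18. In S100 and annexin genes, calcium-binding proteins, 5 of 19 measured members were higher and 0 lower: S100a6, S100a11, Anxa1, Anxa3 and Anxa8. S100a6 was at 9400 and 7076 against 5667 and 3649 CPM and Anxa1 at 53.2 and 110 against 25.6 and 40.0 CPM. Anxa1 reached 100 CPM only in shSrsf10 Tff2 cells.

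Further high genes were Ifi27l2b (91.5 and 110 against 33.1 and 39.1 CPM), Emp3 (202 and 248 against 101 and 101 CPM), the ubiquitin ligase gene Mkrn1 (91.1 and 125 against 40.0 and 59.1 CPM) and Fam25c (281 and 93.5 against 123 and 50.2 CPM). Ifi27l2b and Mkrn1 reached 100 CPM only in shSrsf10 Tff2 cells. The apolipoprotein gene Apoc2 was also higher, at 955 and 577 against 382 and 311 CPM. Genes chosen after their values were seen included Nupr1, a stress-induced chromatin protein, at 39.0 and 33.9 against 7.30 and 6.72 CPM, and Lmx1a, a developmental transcription factor, at 2.85 and 2.18 against 0.125 and 0.240 CPM. They also included Procr, the protein C receptor, at 57.6 and 56.3 against 27.9 and 20.3 CPM, and Il1rn, the interleukin-1 receptor antagonist, at 17.8 and 30.8 against 6.24 and 10.8 CPM.

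Many secreted proteins of hepatocytes were lower in Tff2 cells. Of 24 measured members of the secreted protein list, 13 were lower and 1, Apob, was higher, with medians of -0.83 and -1.10. Ttr, transthyretin, was at 1326 CPM in shCtrl and 459 CPM in shSrsf10 Tff2 cells against 3425 and 1720 CPM, log2 ratios of -1.37 (-1.38 to -1.35) and -1.91 (-1.93 to -1.88). The fibrinogen chain gene Fgg was at 18.8 and 12.97 against 80.2 and 57.6 CPM, and Apoc3, an apolipoprotein of triglyceride-rich particles, at 2.94 and 1.38 against 14.3 and 12.4 CPM. A single cell held 51.4% of the Apoc3 UMIs of shSrsf10 Tff2=0 cells. Ahsg, fetuin, was at 41.8 and 55.7 against 110 and 182 CPM. Outside the list, Agt, angiotensinogen, was at 61.8 and 41.2 against 144 and 133 CPM. Spp2, a secreted liver protein, was at 341 and 108 against 662 and 321 CPM.

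Hepatocyte enzymes were lower in part, with 7 of 15 measured members lower and 0 higher and medians of -0.73 and -0.79. Some of the lower members rest on few cells. A single cell held 42.3% of the Adh1 UMIs of shSrsf10 Tff2 cells, and Fbp1 had 5 and 7 UMIs in Tff2 cells. Ces1c, a carboxylesterase that the liver secretes into plasma, was at 4.86 and 2.35 against 16.2 and 9.45 CPM. Of 14 transcription factors of hepatocytes, 2 were lower, Nr0b2 and Ppara, and 0 were higher. Hnf4a, the main regulator of hepatocyte identity, was at 37.2 and 24.8 against 35.1 and 25.1 CPM.

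Fabp1 was at 13.7 and 26.9 against 103 and 133 CPM, log2 ratios of -2.91 and -2.31. A single cell held 48.4% of its UMIs in shCtrl and 42.2% in shSrsf10 Tff2 cells, so its level in Tff2 cells rests on few cells. Lcn2, an iron-binding acute phase protein of liver and duct epithelium, was at 64.2 and 63.7 against 288 and 305 CPM, log2 ratios of -2.17 (-2.23 to -2.10) and -2.26 (-2.32 to -2.20). It was seen in 395 of 1158 and 606 of 1675 Tff2 cells, and no cell held more than 4.48% of its UMIs there. The fetal growth factor gene Igf2 was at 3.87 and 0.492 against 16.3 and 6.04 CPM, and the Wnt target and inhibitor gene Notum at 46.7 and 7.70 against 85.2 and 24.9 CPM.

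**Figure D3:**
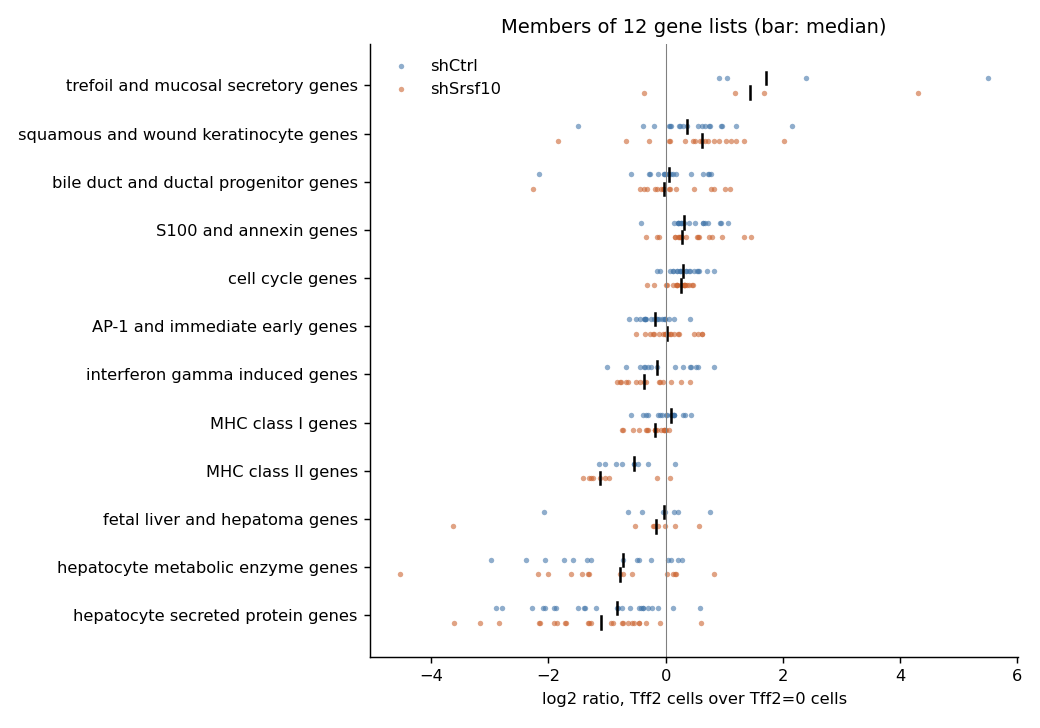
Log2 ratio of Tff2 cells over Tff2=0 cells (x axis) for the measured members of 12 gene lists (rows), 1 point per gene, in shCtrl (blue) and shSrsf10 (orange), with a black bar at the median. The secreted protein and enzyme lists lie to the left in both libraries, with medians from -1.10 to -0.73, the squamous list lies to the right, and the bile duct list is centred near 0.

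Among antigen presentation genes, those of MHC class II were lower in part in Tff2 cells of each library. Of 9 measured MHC class II genes, which present peptides to helper T cells, 4 were lower in Tff2 cells and 0 higher, with medians of -0.55 and -1.12. H2-Ab1 was at 12.4 CPM in shCtrl and 119 CPM in shSrsf10 Tff2 cells against 27.5 and 315 CPM, log2 ratios of -1.14 (-1.30 to -0.99) and -1.40 (-1.45 to -1.36). The invariant chain gene Cd74 was at 70.9 and 624 against 103 and 1223 CPM, log2 ratios of -0.54 and -0.97. Of 19 measured MHC class I genes, 1 was lower, H2-K1, and the list's medians were 0.10 and -0.18. H2-K1 was at 3.07 and 10.2 against 4.63 and 17.1 CPM, and 1 cell held 18.2% of its UMIs in shCtrl Tff2 cells. The better expressed class I gene H2-D1 was at 368 and 868 against 274 and 861 CPM. Of 15 genes induced by interferon gamma 1 was lower, Iigp1, and the list's medians were -0.14 and -0.37. Over all genes 2.48% were higher and 3.03% lower in both libraries, so 1 gene called in a list of this size says little about the list. In chemokines and cytokines, Cxcl16, Ccl2 and Ccl9 were higher and Cxcl1 was lower among 18 measured genes, with Ccl2, which draws monocytes, at 4.61 and 25.6 against 0.735 and 6.72 CPM. A single cell held 25.5% of the Ccl2 UMIs of shCtrl Tff2 cells.

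The levels followed the amount of Tff2 when cells of 10000 to 40000 UMIs were set in order. Depth still differed within this range, with a median of 18006 UMIs in cells with 0 and 25465 in cells with 50 or more Tff2 UMIs in shCtrl, and 20262 and 31081 in shSrsf10, and its part was not tested. From cells with 0 to cells with 50 or more Tff2 UMIs, Krt19 went from 289 to 675 CPM in shCtrl and from 266 to 672 CPM in shSrsf10. Tff1 went from 2.98 to 377 CPM and from 1.57 to 195 CPM, and was higher in each step from 10 Tff2 UMIs up. Lamb3 went from 6.19 to 55.3 and from 5.96 to 42.7 CPM. In the other direction, Lcn2 went from 300 to 24.8 CPM and from 327 to 15.9 CPM, and Ttr from 3512 to 713 CPM and from 1705 to 174 CPM. Cd74 in shSrsf10 went from 1221 to 305 CPM over the same range. Krt8 stayed between 1502 and 1589 CPM in shCtrl and between 1617 and 1774 CPM in shSrsf10, and the proliferation gene Mki67 between 25.1 and 35.2 CPM and between 16.3 and 24.3 CPM. Cells with 1 to 4 Tff2 UMIs lay between the other groups for Krt19, Krt7, Lcn2 and Ttr in both libraries.

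**Figure D4:**
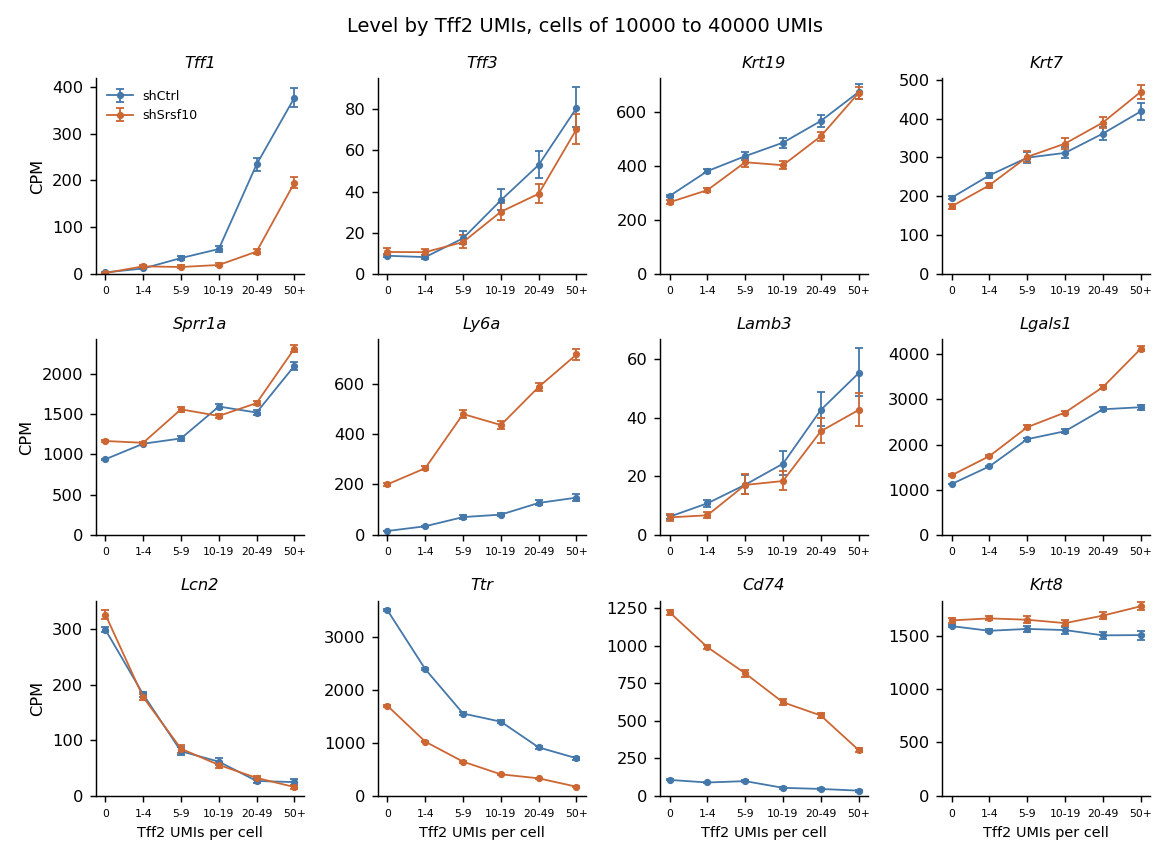
Level of 12 genes (y axes, CPM from 0) by the number of Tff2 UMIs in the cell (x axes), for tumour cells of 10000 to 40000 UMIs in shCtrl (blue) and shSrsf10 (orange), with exact Poisson intervals at 95%. Tff1, Krt19, Krt7, Ly6a, Lamb3 and Lgals1 are highest in cells with 50 or more Tff2 UMIs, Lcn2, Ttr and Cd74 are lowest there, and Krt8 is nearly level.

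Markers of other cell types were low in the Tff2 cells but were not the same between libraries. The rule asked for 0 Ptprc UMIs and at least 5 of Krt8 and Krt18. Low leukocyte markers therefore followed in part from the choice of cells. Summed over the 7 T cell markers the level was 6.81 CPM in shCtrl and 18.98 CPM in shSrsf10 Tff2 cells, against 4.02 and 22.8 CPM in Tff2=0 cells, with all 7 detected. The 7 macrophage markers summed to 18.0 and 13.7 against 23.6 and 17.3 CPM, and the 5 neutrophil markers to 27.9 and 28.9 against 23.5 and 31.6 CPM. The 4 B or plasma cell markers summed to 0.805 and 17.4 against 0.828 and 19.04 CPM, nearly all from Jchain in shSrsf10, where 1 cell held 52.3% of its UMIs in Tff2 cells and 1 cell 89.5% in Tff2=0 cells. The 6 endothelial markers summed to 30.0 and 25.1 against 37.4 and 32.6 CPM, nearly all from Egfl7. NK cell and dendritic cell markers summed to under 1 CPM in each group of cells. Pancreatic acinar markers summed to 78.6 and 73.7 against 82.2 and 77.2 CPM, nearly all from Cela1, with Cpa1, Try4 and Pnlip at 0 in every group.

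The 6 fibroblast markers summed to 20.1 and 90.2 CPM in Tff2 cells against 4.60 and 42.6 CPM in Tff2=0 cells, and so were higher in Tff2 cells. Nearly all of this was Dcn, a matrix proteoglycan, at 19.8 and 85.6 against 3.75 and 39.0 CPM. Col1a1, a defining fibroblast collagen, was at 0.186 and 3.03 CPM in Tff2 cells, and Lum was at 0 in every group. Of the 5 mesothelial markers, Msln carried the sum, at 1.27 and 0.999 against 0.328 and 0.480 CPM, and Lrrn4 was at 0 in every group. The part of other cells in the gene ratios was not tested.

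Between libraries, 706 of 11801 genes (5.98%) were at least 1.5-fold higher in shSrsf10 Tff2 cells and 1169 (9.91%) lower, with a median log2 ratio over all genes of -0.07. In Tff2=0 cells these were 710 of 11659 (6.09%) and 1188 (10.2%). Of 11462 genes measured in both kinds of cell, 585 were higher in shSrsf10 Tff2 cells, and 411 of these were also higher in shSrsf10 Tff2=0 cells. Of 1137 that were lower, 672 were lower in both. The log2 ratios in the next paragraphs are shSrsf10 over shCtrl.

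Among genes of at least 100 CPM in the Tff2 cells of 1 or both libraries, MHC class II genes had the highest library ratios. This rank left out mitochondrial, ribosomal protein, haemoglobin, receptor and immunoglobulin segment, sex-linked and unnamed genes. Jchain, below that level, had 8.04, on 2 UMIs in shCtrl and 1064 in shSrsf10 Tff2 cells. H2-Aa, an MHC class II chain, was at 10.4 CPM in shCtrl and 109 CPM in shSrsf10 Tff2 cells, a log2 ratio of 3.38 (3.22 to 3.54), and that in Tff2=0 cells was 3.81. Cd74 had log2 ratios of 3.14 (3.08 to 3.20) in Tff2 cells and 3.57 in Tff2=0 cells. Both genes reached 100 CPM only in the shSrsf10 Tff2 cells, where they were high. Their place in the rank thus followed in part from the minimum. Of 10 measured MHC class II genes 9 were higher and 0 lower, and of 20 MHC class I genes 17 were higher and 0 lower. Of the genes that interferon gamma induces, 16 of 16 measured were higher, with a median of 2.34 in Tff2 cells and 2.72 in Tff2=0 cells. The T cell chemokine gene Cxcl10 was at 94.7 and 360 CPM, and the immunoproteasome gene Psmb9 at 41.0 and 177 CPM. Beside these values, the T cell markers were also higher in the shSrsf10 Tff2 cells, as given above.

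Genes that were higher in Tff2 cells varied in how far they differed between libraries. Krt19 had a log2 ratio of -0.06, Krt7 of 0.15, Sprr1a of 0.20 and Tff3 of -0.10. Phgr1 had -1.76, Fam25c -1.59, Dcn 2.11 and Anxa1 1.05. In Tff2=0 cells these 4 genes moved the same way, with -2.13, -1.29, 3.38 and 0.64. Tff1 was lower in shSrsf10 Tff2 cells, with a log2 ratio of -1.36 (-1.42 to -1.30), against -0.15 in Tff2=0 cells, where it was at 3.25 and 2.93 CPM. Epcam was also lower, at 104 and 66.7 CPM, and Spp1 at 46.1 and 23.04 CPM. Epcam had a log2 ratio of -0.64 in Tff2 cells and -0.78 in Tff2=0 cells. The squamous list held 0 higher and 6 lower of 19 measured genes, among them Krt23, at 73.1 and 22.1 CPM. Krt23 had a log2 ratio of -1.73 in Tff2 cells and -2.25 in Tff2=0 cells.

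With the same genes left out and the same minimum of 100 CPM in Tff2 cells, Tmem238, Bri3 and Tmem160 had the lowest library ratios. In shCtrl and shSrsf10 Tff2 cells they were at 114 and 17.9, 285 and 58.2, and 116 and 27.7 CPM. They reached the minimum only in shCtrl, where they were high, so this rank also followed in part from the minimum. Their log2 ratios were -2.67, -2.29 and -2.06 in Tff2 cells, and -2.77, -2.26 and -1.96 in Tff2=0 cells. Below that level Igf2 had -2.98, and Notum, at 85.2 CPM at most, had -2.60. Ttr was lower by more in Tff2 cells, with log2 ratios of -1.53 (-1.55 to -1.51) and -0.99 in Tff2=0 cells. So was Ambp, a plasma protein precursor, with -1.38 and -0.80. Ly6a had 2.19 (2.14 to 2.24) in Tff2 cells and 3.71 in Tff2=0 cells, and the haptoglobin gene Hp 0.69 and 1.72. On the other side, Anxa1 had 1.05 and 0.64 and Hbegf, a growth factor ligand of the EGF receptor, 0.82 and 0.32.

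**Figure D5:**
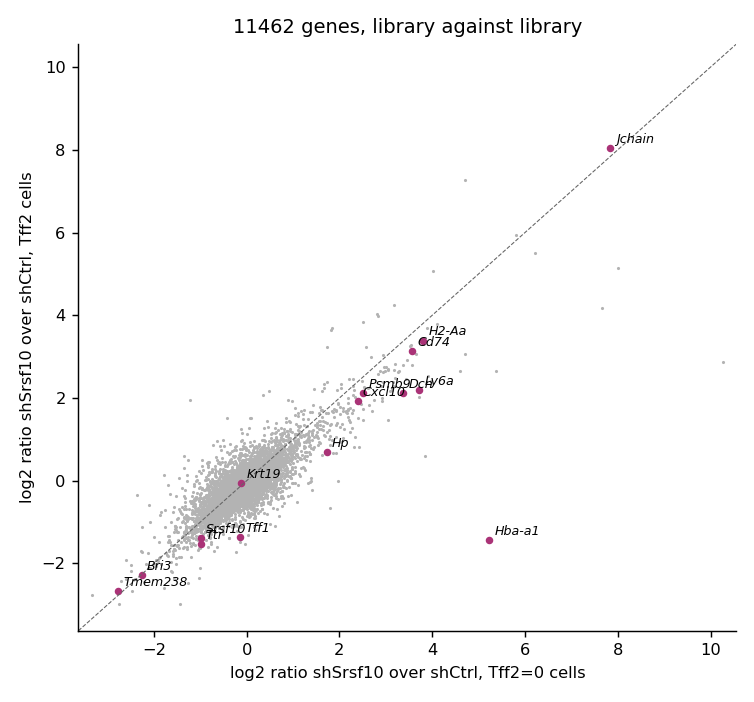
Log2 ratio of shSrsf10 over shCtrl in Tff2=0 cells (x axis) and in Tff2 cells (y axis), 1 point per gene for 11462 genes with at least 50 UMIs in each kind of cell, with a dashed line where both are equal. H2-Aa and Cd74 are high and Tmem238 and Bri3 low on both axes, while Tff1 and Ttr lie below the line.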

How the data were processed

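Each library was deposited as a matrix of raw UMI counts covering 32285 features. The authors made these counts with Cell Ranger 6.1.0 on mm10, per the submitters' processing notes. The libraries held 9920 (shCtrl) and 7553 (shSrsf10) barcodes and 143327661 and 136419902 UMIs, with no barcode under 500 UMIs.

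Counts were summed per library and group of cells and scaled to CPM. Ratios carry exact conditional binomial intervals, shares Clopper-Pearson intervals and levels Poisson intervals, at 95%, and these cover counting error only. A gene needed 50 UMIs over both groups of cells in each library, or, for the library ratio, over both libraries. Of symbols with several gene IDs, 38 in all, the ID with most UMIs was used. Thinning drew UMIs without replacement with seed 1. Doublets were not removed, since the rule does not ask for it; removing the highest Scrublet scores at 0.8% per 1000 barcodes was an alternative. The intervals were tried on simulated Poisson counts that had no spread between cells. That trial cannot show how they hold for genes carried by few cells. Coordinates are from GENCODE vM21 on GRCm38 and promoters from RefSeq on GRCm38.p6. Python 3.11.15, NumPy 2.4.6, SciPy 1.17.1 and Scanpy 1.11.5 were used.

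The cells, the 28 gene lists and the markers were chosen with earlier results of these data known. Named were Tff2, Krt19, Krt7, Sprr1a and Srsf10, the 15 highest and 10 lowest ratios by the weaker library at 100 CPM or more, the 10 highest and 10 lowest library ratios, the 8 largest differences of library ratio each way, and members of the lists with large ratios. Genes outside this rule were chosen after their values were seen. They were Epcam, Sox9, Cftr, Cldn4, Afp, Alb, Hnf4a, Apob, Fgg, Krt5, Krt8, Krt23, Sfn, Mki67, Gapdh and Cxcl16. So were the gastric genes, Psca, Phgr1, Nupr1, Lmx1a, Procr, Dcn, Hba-a1 and Tex101. The neighbours of Tff1 and the single members of marker lists were also chosen in this way. The ranks left out mitochondrial, ribosomal protein, haemoglobin, receptor and immunoglobulin segment, sex-linked and unnamed genes. For the ranks of library ratios the minimum of 100 CPM was asked of Tff2 cells only. In every rank 1 group of cells at the minimum was enough, so a gene could pass only through the group where it was high. Not every gene the rule took is printed. A total of 10 alternatives were planned and 1, choosing cells after thinning, was added after seeing the data.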

Additional observations from a re-analysis of the deposited data

Results flagged for a closer look

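For 17 genes the ratio of Tff2 cells over Tff2=0 cells pointed to opposite sides in the libraries by at least 1.5-fold, and 9 of these had both intervals off 0. Hba-a1 and Tex101 are described, chosen after their values were seen; the other 7 were G0s2, Ccl24, Hamp, Gsta2, Gm39469, Polq and Ankrd13d. The difference between the libraries was not tested. Hba-a1, a haemoglobin chain whose reads may be split with its near-identical copy Hba-a2, had log2 ratios of 1.18 in shCtrl and -5.47 in shSrsf10, at 3.62 against 1.59 CPM and 1.34 against 59.4 CPM. A single cell held 98.8% of the Hba-a1 UMIs of shSrsf10 Tff2=0 cells, and the erythroid markers summed to 163 CPM in that group. Without the barcodes with the highest Scrublet scores the shSrsf10 ratio was 0.89. Tex101, a cell surface glycoprotein gene, had log2 ratios of 0.95 and -2.32, at 3.53 against 1.83 CPM and 5.30 against 26.4 CPM. It was seen in 10 of 1158 shCtrl Tff2 cells, and 1 cell held 34.2% of those UMIs.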

How the results depend on the processing

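With 10 Tff2 UMIs as the minimum the share of Tff2 cells was 11.999% in shCtrl and 34.3% in shSrsf10, with 10000 UMIs per barcode 20.1% and 46.4%, and, for cells chosen after thinning to 5000 UMIs (added after seeing the data), 15.1% and 35.8%. With 20 UMIs of Krt8 and Krt18 it was 19.3% in shCtrl, and at 10000 to 40000 UMIs 38.3% in shSrsf10. The share was higher in shSrsf10 under each of these. With 200 UMIs per gene, which tests fewer genes, 175 genes were higher and 211 lower in Tff2 cells in both libraries, and 341 were higher in shSrsf10 Tff2 cells, all of them among the genes first counted. Under the other settings 230 to 314 genes were higher in both libraries.

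Reversed log2 ratios were few, and their cause was not tested. With the cells chosen after thinning, Cxcl9 was at -0.20 and Tex101 at -2.19 in shCtrl and the library ratio of Fabp1 at -2.17. With a minimum of 10 Tff2 UMIs, Tex101 was at -2.54 in shCtrl and the library ratio of Fabp1 at -1.94. At 10000 to 40000 UMIs Gpx2 was at -0.084 in shSrsf10, and without the highest Scrublet scores Hba-a1 was at 0.89. Of the other values for 531 gene ratios, 4065 lay within the interval of the first value and 1061 outside it, with no gene at 1.5-fold or more changing sign among them. Of those for 84 list medians, 866 stayed and 30 moved by over 0.2.

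No paired analysis was possible because each group had 1 library. Leaving out a library would leave its group empty. Depth limits the genes with few UMIs, whose intervals are wide.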

Other observations

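Of 20 cell cycle genes, 0 were at least 1.5-fold higher or lower in both libraries, where 2.48% and 3.03% of all genes were, so that counts of 0 in lists of this size are near the background. Their medians were 0.30 and 0.27, against -0.01 and -0.03 over all genes. The mitotic genes Ube2c and Aurka were at 412 and 465 against 279 and 341 CPM, and at 40.8 and 49.2 against 27.9 and 35.7 CPM. Mki67, of the same list, went the other way, at 29.6 and 22.1 against 31.7 and 25.3 CPM. Of 20 AP-1 and immediate early genes 0 were called in both libraries, and Fosl1, an AP-1 subunit, was at 47.4 and 56.0 against 35.5 and 36.3 CPM. Of 14 YAP and TEAD target genes, 14 hypoxia genes, 16 glycolysis genes, 20 endoplasmic reticulum folding genes, 20 splicing factor genes and 16 epithelial junction genes, 0 were called in either direction in both libraries. Glycolytic Gapdh was at 1785 and 2153 against 1548 and 1822 CPM.

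In other lists single members were called. Of 25 lysosome and secretory genes 4 were higher and 0 lower, the same 4 S100 and annexin genes that stand in both lists, Anxa1, Anxa3, S100a6 and S100a11. Of 20 p53 target genes 0 were higher and Sesn1 and Btg2 were lower, with Btg2 at 299 and 396 against 456 and 599 CPM, and the list's medians were 0.03 and -0.0019. In 19 glutathione genes Gclc and Gstm2 were lower and Gpx2 higher, with Gstm2 at 131 and 220 against 246 and 362 CPM and list medians of -0.02 and -0.17. Of 18 matrix and protease genes, Lamb3, Spp1 and Itgb6 were higher and Fn1 and Timp3 lower, with medians of 0.08 and 0.06. Fn1, fibronectin, was at 435 and 312 against 714 and 547 CPM. Lgr5, a Wnt-linked progenitor gene, was at 29.6 and 25.4 against 45.5 and 39.3 CPM.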
